A study of Mus musculus with 10 samples.

Results

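A set of 10 genes of growth arrest and of the p53 pathway were followed in mouse liver: the CDK inhibitors Cdkn1a and Cdkn1b, the stress genes Gadd45a, Gadd45b and Gadd45g, the antiproliferative genes Btg1 and Btg2, the p53 feedback genes Mdm2 and Ccng1, and the cyclin gene Ccnd1. They were picked by name, and all 10 of them were found once each among the 43629 genes counted and passed the filter on low counts that left 14143 genes to test. The livers came from 10 male mice of an FVB background, 5 without cachexia (NCACS, mice 11 to 15) and 5 with the cancer anorexia-cachexia syndrome (CACS, mice 16 to 20). All 10 carried Lkb1 flox/flox alleles and had been given Ad5CMV-Cre, an adenovirus that expresses Cre recombinase, through the nose when they were 12 to 20 weeks old, so that both groups bore lung tumours and no tumour-free liver was compared. A mouse counted as CACS when it had lost more than 15% of its peak weight. The labels give a weight change of -8 ± 4.64% (SD, n = 5) for NCACS mice, from -3 to -14%, and of -30.6 ± 1.82% (SD, n = 5) for CACS mice, from -29 to -33%. The number of reads counted per liver lay between 31459179 and 40746178. The labels do not say when the livers were collected, whether the mice had eaten, or in which batch the libraries were made, although the methods name a batch correction.

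In a stressed cell the transcription factor p53 switches on Cdkn1a, whose product p21 holds the cyclin-dependent kinases in check, together with Ccng1 and Mdm2. Mdm2 is the ubiquitin ligase that returns p53 to a low level. Cyclin D1, the product of Ccnd1, does the opposite of p21: it binds Cdk4 or Cdk6 and drives the cell out of its resting phase through the retinoblastoma protein and E2F factors. Hepatocytes of an adult liver rarely divide. In that tissue several of these genes are also known to follow feeding, glucocorticoids and the time of day.

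The libraries of NCACS mice 15 and 13 have to be named before the results. NCACS mouse 15, which had lost the most weight of its group (14%), had Dbp at 1.27 CPM (the count scaled to library size by the TMM method and given per 1e6 reads, the unit of levels below unless a length is named), against 52.1 CPM or more in the other 4 NCACS livers, and Arntl at 33.8 CPM, against at most 7.21 CPM. Both are clock genes that peak at opposite times of day. Values without mouse 15 are given where leaving it out changed a call or moved a difference markedly. NCACS mouse 13 stood apart in other genes. It had Lcn2 at 4117 CPM, against at most 324 CPM in any other liver, and Egr1 at 89.4 CPM, against at most 20.2 CPM. Alb, which encodes the albumin that hepatocytes secrete, lay between 45741 and 107315 CPM, with mouse 15 lowest. Of 8 Kupffer cell and macrophage markers, all 8 had negative log2 fold changes and 5 had an unadjusted p under 0.05 in edgeR's test. DESeq2 called 3 of them, all lower, and edgeR called 1, Cd5l, where 1.92% of all genes passed as lower in edgeR's test. Without mouse 15 Cd5l missed the threshold (adjusted p = 0.0513 in edgeR's test). Summed over the list, NCACS livers had 176 to 297 CPM and CACS livers 107 to 211 CPM. The sum of the hepatocyte markers ran from 73191 to 119795 CPM in the NCACS group and from 109664 to 137137 CPM in the CACS group, with mouse 15 at the lower end. All 4 tested neutrophil and monocyte markers had negative log2 fold changes (median -1.43) and an unadjusted p under 0.05, with 0 called by edgeR and 2 by DESeq2, and their sum was 4.48 to 20.2 CPM in the NCACS and 2.33 to 6.47 CPM in the CACS group. The 6 tested lymphocyte markers had a median log2 fold change of -0.66 and 0 calls in edgeR, with 3 at an unadjusted p under 0.05 and 1 called by DESeq2. The hepatocyte factor Hnf4a and the lung surfactant gene Sftpa1 passed as higher with all livers and not without mouse 15 (adjusted p = 0.0606 and 0.0607 in edgeR's test). Of the endothelial, stellate cell and cholangiocyte markers 0 were called by edgeR or DESeq2, with 0, 2 and 1 at an unadjusted p under 0.05. Over all genes 21.6% had an unadjusted p under 0.05 in edgeR's test, 1.89% passed there as higher, and DESeq2 called 10.2%. Fewer cells of a type and less RNA per cell cannot be told apart in such whole-tissue libraries, and the part of cell composition in the results below was not tested.

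Transcripts of growth arrest genes did not move as one block between CACS and NCACS livers. Cyclin D1 transcripts were at a mean of 9.10 CPM in CACS livers and 23.4 CPM in NCACS livers, and those of cyclin G1 at 24.3 and 34.2 CPM. Gadd45b and Btg2 lay in the other direction with folds of means of 2.16 and 1.75, while Cdkn1b and Mdm2 had folds of 1.0 and 0.96. At an adjusted p of 0.05 (edgeR, quasi-likelihood, Benjamini-Hochberg over all genes) 0 of the 10 members passed, where 3.8% of all tested genes did, 1.89% higher and 1.92% lower in CACS livers. An unadjusted p under 0.05 was found for 3 members, Ccnd1, Ccng1 and Gadd45b, against 21.6% of all genes. DESeq2 called 2 members, Ccnd1 and Ccng1, both lower in CACS livers, against 10.2% of all genes, and limma-voom called 0, against 3.6%. The median log2 fold change was 0.13 over the members and -0.0053 over all genes tested. Levels that did not overlap between the groups were seen for 1 member, Ccng1, against 7.07% of all genes (3.95% higher and 3.13% lower in CACS livers).

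**Figure D1:**
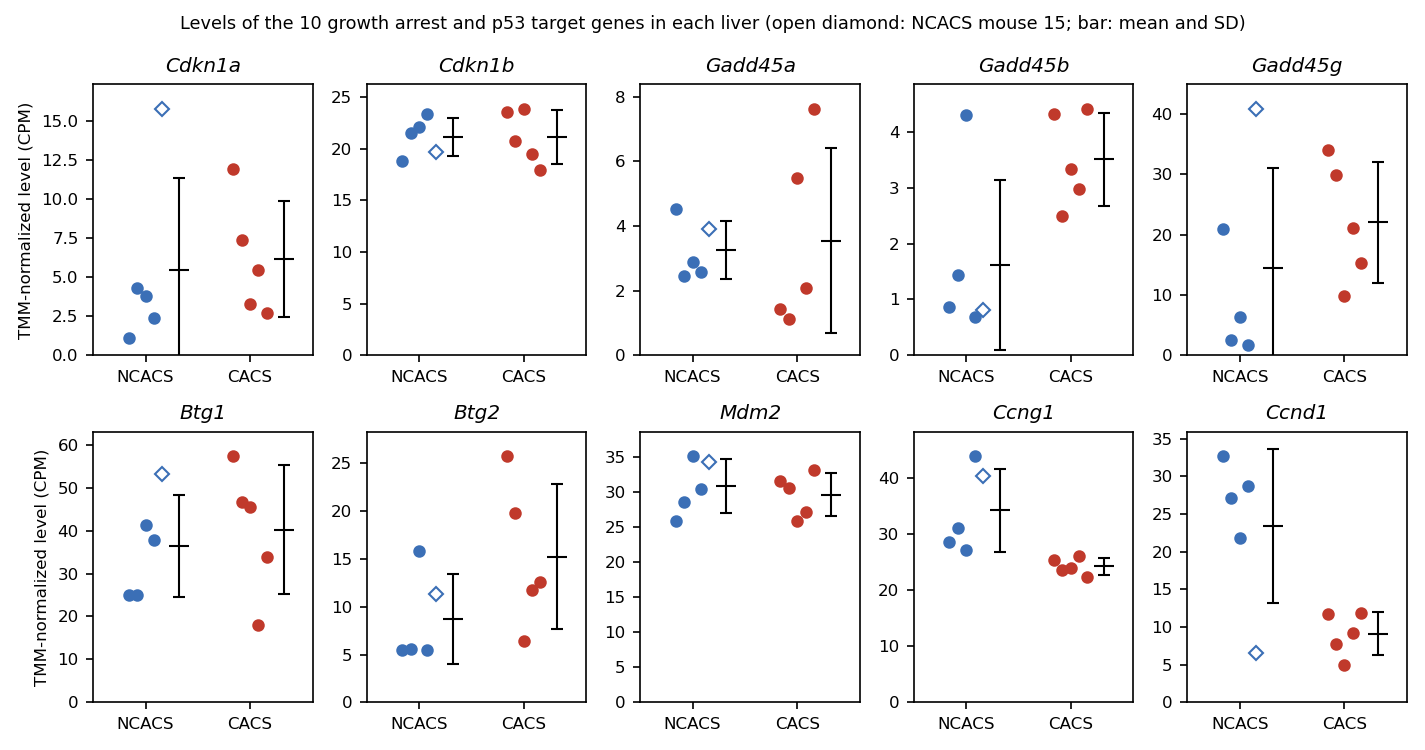
Level of each gene in each liver, as TMM-normalized CPM on a linear axis from 0, for 5 NCACS (blue) and 5 CACS (red) livers. Black bars are the mean and SD, cut off at 0 for NCACS livers in Cdkn1a and Gadd45g, and the open diamond is NCACS mouse 15. The 5 CACS livers lie below all NCACS livers for Ccng1, and for Ccnd1 below all but mouse 15.

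Ccnd1 (ENSMUSG00000070348, reverse strand of chromosome 7 of GRCm38, 144929931 to 144939925) had the largest fitted fold change of the 10 genes in edgeR and DESeq2, though not in limma-voom or in mean log2 CPM, where Gadd45g and Gadd45b were larger. Its levels in NCACS mice 11 to 14 were 32.7, 27.1, 21.8 and 28.8 CPM, whereas mouse 15 had 6.52 CPM. CACS mice 16 to 20 had 11.7, 7.74, 5.03, 9.21 and 11.8 CPM. The 4 first NCACS livers thus stood above every CACS liver, and mouse 15 fell inside the CACS range. All 10 livers together gave a log2 fold change of -1.36 (95% interval -2.16 to -0.56, SE 0.366, adjusted p = 0.0611 in edgeR's test), which missed the threshold. DESeq2 gave an adjusted p of 0.00347 for nearly the same log2 fold change of -1.37, and limma-voom 0.134. The two-sided exact permutation test of mean log2 CPM gave p = 0.0397, where 0.00794 is the smallest p that the 252 assignments allow. With a mouse left out that p ran from 0.00794 to 0.0794, and it was above 0.05 without mouse 11, 12, 13, 14, 17, 18 or 19. Without mouse 15 the log2 fold change was -1.59 (95% interval -2.10 to -1.09, adjusted p = 0.0141 in edgeR's test). In that comparison of 4 with 5 livers 1.99% of all genes passed in either direction, and 1.11% of all genes passed as lower. Ccnd1 was then the single member called. Groups did not overlap in 2 members, Ccnd1 and Ccng1, both lower, against 9.03% of all genes without that mouse (3.96% lower and 5.07% higher). Leaving out any other mouse gave log2 fold changes between -1.47 and -1.21, none of them past the threshold. The counts behind these levels ran from 154 to 1101 reads per liver, so counting error was small beside the difference. In the annotation 1100 exonic bases of Ccnd1 overlap LTO1 on the other strand, and the strand setting of the counting is not given in the sources used here. LTO1 itself had 432 to 678 counts per liver and a log2 fold change of -0.21 (adjusted p = 0.274 in edgeR's test).

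Ccng1 (ENSMUSG00000020326, reverse strand of chromosome 11, 40748552 to 40755311) encodes cyclin G1, a p53 target that recruits a phosphatase to Mdm2. NCACS mice 11 to 15 had 28.6, 31.0, 27.2, 43.8 and 40.2 CPM, and CACS mice 16 to 20 had 25.4, 23.5, 24.0, 26.1 and 22.3 CPM. All CACS livers were below all NCACS livers, by a narrow margin of 26.1 against 27.2 CPM, and the CACS livers were also more alike (SD 1.52 CPM, against 7.40 CPM in NCACS livers). CACS differed from NCACS livers by -0.49 in log2 fold change (95% interval -0.79 to -0.20, SE 0.135, adjusted p = 0.0634 in edgeR's test). DESeq2 called the gene (adjusted p = 0.0147) and limma-voom did not (0.0751). The exact permutation p was 0.00794, the smallest possible, and the direction held in all 10 fits that left out a mouse, with log2 fold changes from -0.57 to -0.39. Mouse 15 was no exception for this gene and had the second highest level of the 10 livers. Ccng1 is shown with the 250 bases before its RefSeq start site (GRCm38.p6, chr11:40755287-40755536, reverse strand), since it is the member whose groups were apart. The capitals mark a match to the p53 half-site consensus, found in 8.36% of 32851 promoter windows of 300 bases.
Ccng1: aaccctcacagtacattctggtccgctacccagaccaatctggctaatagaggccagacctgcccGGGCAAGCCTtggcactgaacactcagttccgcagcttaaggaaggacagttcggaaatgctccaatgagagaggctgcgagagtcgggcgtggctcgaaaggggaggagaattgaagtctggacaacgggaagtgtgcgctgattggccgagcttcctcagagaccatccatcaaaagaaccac

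Mdm2 (ENSMUSG00000020184, reverse strand of chromosome 10, 117688875 to 117710758) was flat. It ran from 25.8 to 35.0 CPM in NCACS livers (median 30.4) and from 25.8 to 33.0 CPM in CACS livers (median 30.5), so that the groups overlapped over nearly their whole range. Its log2 fold change was -0.06 with a 95% interval from -0.29 to 0.18 (adjusted p = 0.804 in edgeR's test), which leaves room for a fold between 0.816 and 1.13.

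Cdkn1a (ENSMUSG00000023067, forward strand of chromosome 17, 29090976 to 29100727) encodes p21 and was among the most variable of the 10 genes, with a 14-fold span between the highest and the lowest liver. NCACS mice 11 to 15 had 1.13, 4.31, 3.82, 2.38 and 15.7 CPM. CACS mice 16 to 20 had 11.9, 7.34, 3.30, 5.46 and 2.69 CPM. The highest liver of all was NCACS mouse 15 and the next were CACS mice 16 and 17, so the groups overlapped at both ends. With all livers the gene had a log2 fold change of 0.17 (SE 0.619, adjusted p = 0.906 in edgeR's test), and the 95% interval of -1.18 to 1.52 does not exclude a change of 2-fold either way. Without mouse 15 it was 1.08 (95% interval 0.017 to 2.14, adjusted p = 0.241 in edgeR's test), still short of the threshold, and without CACS mouse 16 it was -0.22. With all livers limma-voom gave 0.56 and the difference of mean log2 CPM was 0.51 (exact permutation p = 0.508, and 0.135 without mouse 15). The antisense transcript AC167363.2 overlaps 273 exonic bases of Cdkn1a and was not among the genes counted.

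RefSeq lists more than 1 start site for Cdkn1a. The window before the first (GRCm38.p6, chr17:29090729-29090978, forward strand) is printed because it is the member window that held the p53 response element, in capitals, from base -73 to base -42 before the start, counted as 2 half-sites with a spacer of 0 to 13 bases. This element was matched in 0.0731% of the 32851 windows and in 1 of the 10 windows of the members. A match is only a run of letters. Gadd45a, Mdm2 and Ccng1 had a half-site alone.
Cdkn1a: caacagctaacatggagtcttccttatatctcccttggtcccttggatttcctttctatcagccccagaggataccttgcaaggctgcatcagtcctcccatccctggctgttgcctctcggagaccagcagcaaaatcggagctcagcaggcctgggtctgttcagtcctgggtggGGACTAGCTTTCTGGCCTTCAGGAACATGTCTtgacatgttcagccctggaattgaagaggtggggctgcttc

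Cdkn1b (ENSMUSG00000003031, forward strand of chromosome 6, 134920401 to 134925513) encodes p27, the inhibitor that keeps resting cells at rest. It varied least of the 10 genes, with 18.9 to 23.4 CPM in NCACS livers (median 21.6) and 17.9 to 23.9 CPM in CACS livers (median 20.8). In edgeR its log2 fold change was 0.0012 with a 95% interval from -0.23 to 0.23, a fold between 0.855 and 1.17 (adjusted p = 0.997 in edgeR's test). The sign turned negative with RLE or upper-quartile scaling, so no direction can be given. The within-liver log2 ratio of Cdkn1a to Cdkn1b averaged -2.48 (SD 1.38, n = 5) for NCACS and -1.97 (SD 0.793, n = 5) for CACS, a difference of 0.51 (two-sided exact permutation p = 0.492, adjusted p = 0.492 over the 4 ratios tested). The log2 ratio of Cdkn1a to Ccng1, which library scaling cannot change, differed by 0.98 (exact permutation p = 0.183, adjusted p = 0.265). It was -1.35 in mouse 15 and at most -2.81 in the other NCACS livers, whereas CACS livers ran from -3.02 to -1.09. Without mouse 15 the differences in these ratios were 1.05 to Cdkn1b and 1.43 to Ccng1 (exact permutation p = 0.0873 and 0.0794, adjusted p = 0.138 for both).

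The GADD45 genes encode small stress proteins that bind p21, PCNA and upstream kinases of the p38 and JNK pathways, and the 3 of them gave 3 different profiles. Gadd45b (ENSMUSG00000015312, forward strand of chromosome 10, 80930073 to 80932204) was at 0.860, 1.44, 4.30, 0.693 and 0.803 CPM in NCACS mice 11 to 15 and at 4.32, 2.49, 3.33, 2.99 and 4.41 CPM in CACS mice 16 to 20. Apart from mouse 13, which lay with the CACS livers, every NCACS liver was below every CACS liver. Between groups the log2 fold change was 1.12 (95% interval 0.10 to 2.13, SE 0.465, unadjusted p = 0.0335, adjusted p = 0.190 in edgeR's test), with an exact permutation p of 0.0317. That p was 0.0556 without mouse 14, 16 or 20, and without mouse 15 it was 0.0476 when the remaining 9 libraries were rescaled and 0.0556 with the scaling of all 10 kept. Without mouse 15 the fitted log2 fold change was 0.95 and its 95% interval of -0.11 to 2.01 included 0 (adjusted p = 0.300 in edgeR's test). Mouse 13 decided the call, since without it the log2 fold change was 1.87 (adjusted p = 0.0164 in edgeR's test). With only 23 to 173 reads per liver this was the least counted member, and the levels in mice 11, 14 and 15 rest on 29, 23 and 26 reads.

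Gadd45g (ENSMUSG00000021453, forward strand of chromosome 13, 51846678 to 51848468) spanned 25.1-fold over the 10 livers, the widest range of the members. NCACS mice 11 to 15 had 20.9, 2.56, 6.40, 1.63 and 40.9 CPM, and CACS mice 16 to 20 had 34.1, 29.9, 9.86, 21.2 and 15.3 CPM. Mice 12, 13 and 14 were below every CACS liver, mouse 11 was inside the CACS range and mouse 15 above it. A log2 fold change of 0.61 was fitted (95% interval -0.98 to 2.20, SE 0.727, adjusted p = 0.674 in edgeR's test), and 1.5 without mouse 15 (adjusted p = 0.239 in edgeR's test). With all livers limma-voom gave 1.49 (adjusted p = 0.261) and the difference of mean log2 CPM was 1.42, to which an exact permutation p of 0.175 belongs. That p was 0.0476 without mouse 15.

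Gadd45a (ENSMUSG00000036390, reverse strand of chromosome 6, 67035096 to 67037457), the family member that p53 is best known to induce, showed no group difference. It was at 4.51, 2.44, 2.88, 2.56 and 3.89 CPM in NCACS mice 11 to 15 and at 1.42, 1.13, 5.48, 2.08 and 7.62 CPM in CACS mice 16 to 20. The CACS livers held both the lowest and the highest values and enclosed the NCACS range. The log2 fold change was 0.12 in edgeR (95% interval -0.93 to 1.17, adjusted p = 0.916) while the difference of mean log2 CPM was -0.22 (exact permutation p = 0.683), so no direction can be given. CACS mice 16 and 17, lowest in Gadd45a, were the highest CACS livers in Gadd45g. The log2 ratio of Gadd45g to Gadd45a averaged 1.23 (SD 1.61, n = 5) for NCACS and 2.87 (SD 1.86, n = 5) for CACS, a difference of 1.64 (exact permutation p = 0.198, adjusted p = 0.265 over the 4 ratios). E230016M11Rik overlaps 337 exonic bases of Gadd45a on the other strand and had 54 to 121 counts per liver.

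The windows of Gadd45b (chr10:80929841-80930090, forward strand) and Gadd45g (chr13:51846425-51846674, forward strand) are printed together because these were the members whose 250 bases before the start held the E-box CACGTG, in capitals. The E-box, which clock factors and MYC bind among others, was in 2 of the 10 member windows and in 7.15% of all 32851. It lay at base -185 in Gadd45b and at base -142 in Gadd45g. Of the other motifs searched for, the forkhead motif GTAAACA was in 2 of the 10 member windows (Btg1 and Mdm2) and in 3.65% of all. The CRE half-site TGACG was in 4 of the 10 and in 20.8% of all, and the glucocorticoid half-site AGAACA in 0 of the 10 and in 19% of all. In mouse 15, where Dbp was low and Arntl high, Gadd45g was the highest of the 10 livers and Gadd45b the second lowest.
Gadd45b: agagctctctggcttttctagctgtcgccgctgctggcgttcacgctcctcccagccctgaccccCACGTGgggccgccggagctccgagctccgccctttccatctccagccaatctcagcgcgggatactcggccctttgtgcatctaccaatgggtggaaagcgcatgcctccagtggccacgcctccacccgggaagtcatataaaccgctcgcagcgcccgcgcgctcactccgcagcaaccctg
Gadd45g: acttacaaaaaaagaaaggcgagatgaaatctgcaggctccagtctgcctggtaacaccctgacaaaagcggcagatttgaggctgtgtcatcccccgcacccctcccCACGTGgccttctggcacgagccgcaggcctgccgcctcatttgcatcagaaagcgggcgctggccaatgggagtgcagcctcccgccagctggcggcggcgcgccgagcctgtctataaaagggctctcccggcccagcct

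**Figure D2:**
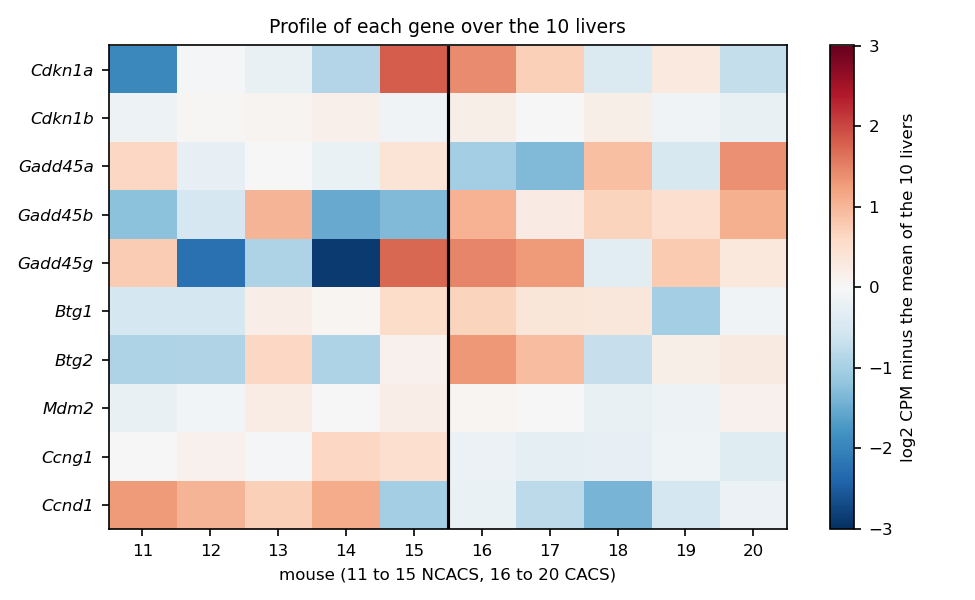
Log2 CPM of each gene minus its mean over the 10 livers, by mouse, with NCACS mice to the left of the line and CACS mice to the right. Mouse 15 is red for Cdkn1a and Gadd45g and blue for Ccnd1 and Gadd45b, whereas the rows of Cdkn1b and Mdm2 are nearly white.

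BTG proteins recruit deadenylases to messenger RNA and slow proliferation. Btg2 (ENSMUSG00000020423, reverse strand of chromosome 1, 134075170 to 134079120) was at 5.46, 5.55, 15.8, 5.42 and 11.3 CPM in NCACS mice 11 to 15 and at 25.7, 19.7, 6.40, 11.7 and 12.6 CPM in CACS mice 16 to 20. Mice 11, 12 and 14 were below every CACS liver, and mice 13 and 15 were among the CACS values. Btg2 had a log2 fold change of 0.81 (95% interval -0.063 to 1.68, SE 0.399, adjusted p = 0.267 in edgeR's test). Btg1 (ENSMUSG00000036478, forward strand of chromosome 10, 96617006 to 96622809) ran from 25.0 to 53.1 CPM in NCACS livers (median 37.8) and from 17.9 to 57.3 CPM in CACS livers (median 45.5), with a log2 fold change of 0.14 (95% interval -0.50 to 0.78, adjusted p = 0.824 in edgeR's test). Both genes were highest in CACS mouse 16. The log2 ratio of Btg2 to Btg1 differed by 0.70 between the groups (exact permutation p = 0.135, adjusted p = 0.265 over the 4 ratios).

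**Figure D3:**
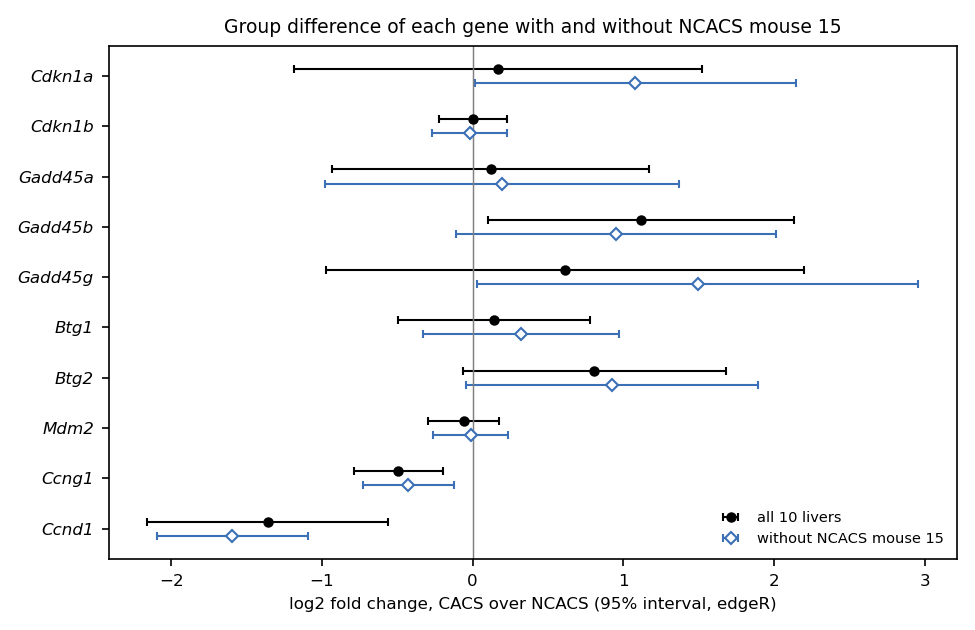
Log2 fold change of CACS over NCACS livers with its 95% interval from edgeR, for all 10 livers (black circles) and without NCACS mouse 15 (open blue diamonds). Ccnd1 moves from -1.36 to -1.59 with a narrower interval, Cdkn1a from 0.17 to 1.08 and Gadd45g from 0.61 to 1.5, while Ccng1, Cdkn1b and Mdm2 stay near their first values.

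Mouse 15 touched some members far more than others. It was the highest of all 10 livers in Cdkn1a and Gadd45g and the lowest NCACS liver in Ccnd1, and so lay at the CACS end, or past it, for these 3 genes. For Ccng1 (40.2 CPM) and Gadd45b (0.803 CPM) it lay with its own group. Without it, the median log2 fold change of the 10 members was 0.26, where that of all genes was 0.00045, and 1 of the 10 members passed the threshold.

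Levels of different genes can be set side by side only per length, here as CPM per kilobase of merged exons. In NCACS livers the order ran from Gadd45g (12.3 ± 14.2 CPM per kilobase, SD, n = 5) through Ccng1 (9.73), Btg1 (6.91), Mdm2 (6.06), Ccnd1 (4.97), Cdkn1b (4.64), Btg2 (3.18), Gadd45a (1.85) and Cdkn1a (1.54) to Gadd45b (1.02 ± 0.961). Each of the 9 pairs of neighbours in this order overlapped within 1 SD. In CACS livers Gadd45g was again first (18.8 ± 8.55) and Cdkn1a last (1.73 ± 1.05), and 2 of 9 neighbouring pairs were apart by more than their SDs, Ccng1 from Mdm2 and Cdkn1b from Gadd45b. Ccnd1 took the fifth place in NCACS livers and the ninth in CACS livers (1.93 ± 0.608).

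The genes whose deviations from their group means most resembled those of the members with the smallest p are given as a description over 10 livers and 12111 genes. For Ccnd1 they were Cracr2b (r = 0.98, Spearman's rho = 0.89), Gpt (0.97 and 0.94) and Rbm14 (0.96 and 0.88). For Ccng1 they were Snx1 (r = 0.95, rho = 0.90), Cd55 (0.95 and 0.93) and Ythdc1 (0.95 and 0.92), and for Gadd45b Psd (r = 0.97, rho = 0.94), Ccdc88b (0.96 and 0.95) and Cyp26a1 (0.95 and 0.93).

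Other p53 targets gave no common direction. Of 36 on the list, which also held Trp53 and Mdm4, 34 were tested, 18 with positive and 16 with negative log2 fold changes, at a median of 0.0069. One passed the threshold, Bbc3, which encodes the BH3-only protein PUMA that p53 uses to start apoptosis, and it fell. Of all genes 1.92% passed as lower and 3.8% in either direction. NCACS livers had 3.28 to 12.2 CPM of Bbc3 and CACS livers 0.761 to 2.15 CPM, with no overlap, where 3.13% of all genes were lower without overlap. Bbc3 had -2.45 as its log2 fold change (SE 0.389, adjusted p = 0.0120 in edgeR's test). It passed whichever mouse was left out and in all 8 other settings. Trp53 itself had the same mean in both groups, 25.8 CPM (SD 1.48 in NCACS and 1.61 in CACS, n = 5 each), with a log2 fold change of -0.0016. DESeq2 called 4 more list members, Plk3, Ddb2 and Tigar as higher and Sesn1 as lower. None of these passed in edgeR, where their log2 fold changes were 1.26, 0.57, 0.40 and -0.35 (adjusted p = 0.0675, 0.0814, 0.0749 and 0.0567). Over all genes DESeq2 called 10.2%.

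**Figure D4:**
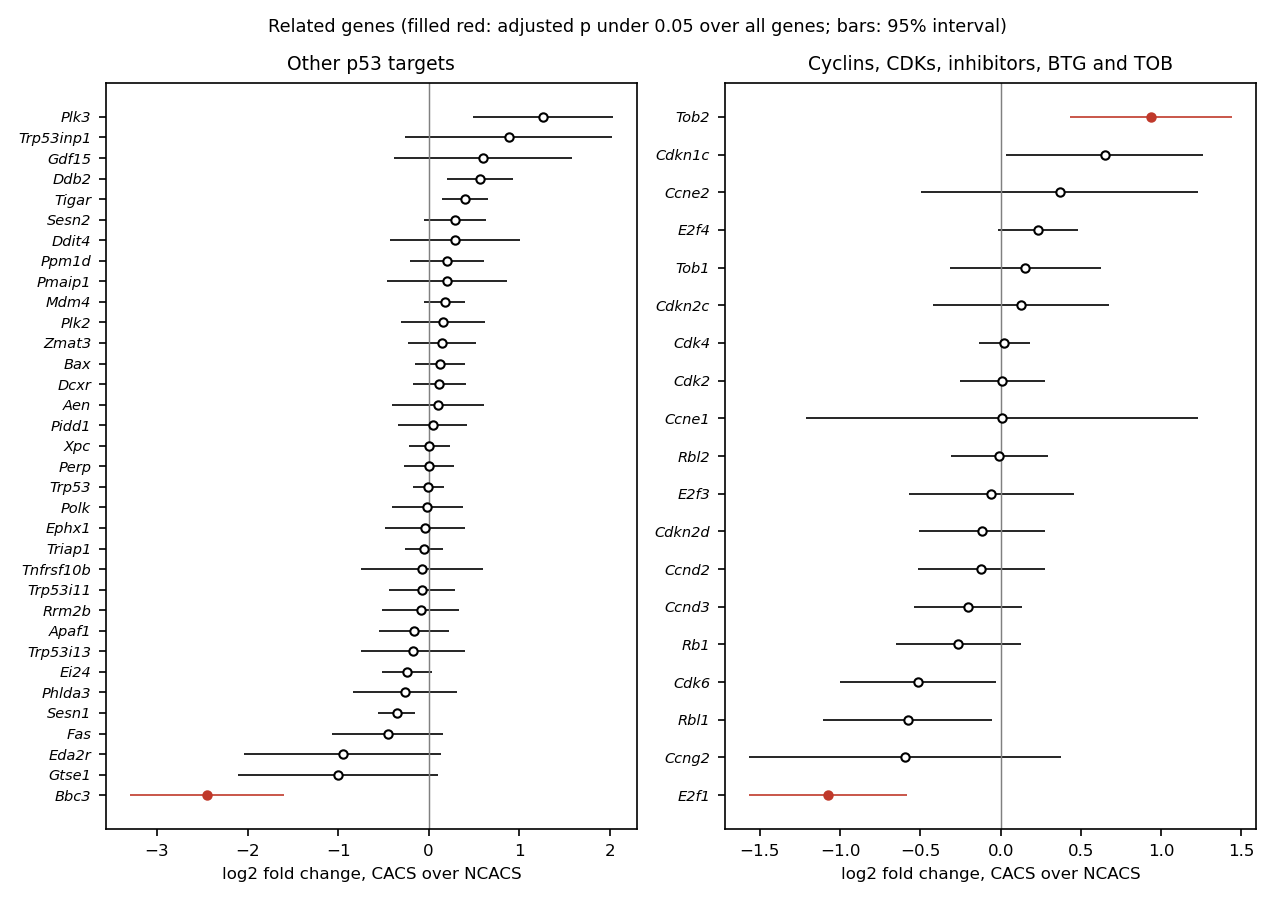
Log2 fold change of CACS over NCACS livers with its 95% interval for the 34 tested genes of the list of other p53 targets, which also held Trp53 and Mdm4 (left), and 19 cyclins, CDKs, their inhibitors and relatives of the BTG genes (right), filled red where the adjusted p over all genes was under 0.05. Bbc3 at -2.45 and E2f1 at -1.07 stand at the bottom of their panels and Tob2 at 0.94 at the top of the right one.

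Among partners of the cell cycle members, E2f1, the transcription factor released once cyclin D and its kinases act on the retinoblastoma protein, fell in CACS livers. It was at 2.56 to 4.88 CPM in NCACS and 1.43 to 2.31 CPM in CACS livers, without overlap (log2 fold change -1.07, SE 0.225, adjusted p = 0.0298 in edgeR's test). The call was lost when mouse 11, 12, 13, 16, 18 or 20 was left out, with adjusted p from 0.0559 to 0.0664 there. E2f1 was the only one of 17 tested cyclins, CDKs, inhibitors and E2F or retinoblastoma genes past the threshold. Of all genes 1.92% passed as lower, and 7.07% had groups without overlap in either direction. The median log2 fold change of that list was -0.058, and 4 of the 17 had an unadjusted p under 0.05 in edgeR's test, against 21.6% of all genes. The other D cyclins, Ccnd2 and Ccnd3, had log2 fold changes of -0.12 and -0.20, and the kinase Cdk4 that cyclin D1 binds had 0.022. Cdkn2a and Cdkn2b were too low to test. Tob2, a relative of the BTG genes, rose from 36.5 ± 10.5 to 69.8 ± 19.4 CPM (SD, n = 5 each, log2 fold change 0.94, adjusted p = 0.0472 in edgeR's test), where 1.89% of all genes passed as higher. That call was lost when any mouse but 18 was left out, with adjusted p from 0.0515 to 0.0974 in edgeR's test. Cdkn1c, the inhibitor p57, had 0.65.

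Genes of dividing cells did not pass the test. Of 16 proliferation genes 13 were tested, 10 with negative and 3 with positive log2 fold changes at a median of -0.52, and 0 passed in edgeR's test, with 3 at an unadjusted p under 0.05 and 2 called by DESeq2 (Mcm2 and Mcm5, both lower). Among 20 immediate early genes, the class to which Btg2 and Gadd45b are often counted, 16 were tested. Their median log2 fold change was 0.17, with 5 genes at an unadjusted p under 0.05. In edgeR's test 2 passed as higher, Jun and Dusp1, where 1.89% of all genes did. Both calls were lost without mouse 15 (adjusted p = 0.0743 and 0.0537 in edgeR's test) and with limma-voom (0.0529 and 0.0633). Without mouse 15, 1 other gene of this list passed as higher in edgeR's test, where 1.99% of all genes passed in either direction. With all livers DESeq2 called 4 genes of the list, all of them higher. Of 12 glucocorticoid targets all 12 were tested and 2 rose, Fkbp5 and Zbtb16, where 1.89% of all genes did, with a median of 0.65 and 7 genes at an unadjusted p under 0.05. Without mouse 15 the call of Fkbp5 was lost (adjusted p = 0.0628 in edgeR's test) and that of Zbtb16 was kept (0.0355). None of the 16 circadian genes passed in edgeR's test, 6 had an unadjusted p under 0.05 and 2 were called by DESeq2. For each list in this paragraph the shares over all genes were 21.6% at an unadjusted p under 0.05 in edgeR's test and 10.2% called by DESeq2.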

How the data were processed

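Liver RNA-seq of 10 male mice was analysed (5 per group, from the labels). A further allele that all 10 mice shared is not reported here. Libraries were made with a stranded mRNA kit. The authors aligned reads to GRCm38 with STAR 2.4.1d, counted them per Ensembl gene with HTSeq 0.6.1 and deposited raw counts without normalization. The annotation release and strand setting are not given in the sources used here. Their batch correction was not repeated, since the labels name no batch. Symbols and positions came from GENCODE M21, which lacked 1081 of 43629 identifiers, and promoter windows from RefSeq (GRCm38.p6), which matched 9 of the 10 members, all but Ccnd1.

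Counts were filtered with filterByExpr, scaled by TMM and tested with edgeR 4.0.16 (quasi-likelihood) in R 4.3.3, with Benjamini-Hochberg adjustment over all 14143 genes. Standard errors were derived from the F statistic. Log2 CPM used a prior count of 2. DESeq2 1.42.0, limma-voom 3.58.1, RLE, upper-quartile and no scaling, other filters, a robust fit, a prior count of 0.5 and leaving out each mouse were the alternatives. The code was tested on simulated data. No livers of a group were the same library (smallest chi-square per degree of freedom 51.3).

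Named were all 10 members, list genes as their counts needed, and the 3 genes most like each of the 3 members with the smallest p. Members and lists were chosen with earlier results of these data known. The hepatocyte list had 1 of 8 names unmatched. P-values set the group difference against the spread between these mice. With at least 23 counts per liver, counting error mattered most for Gadd45b.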

Additional observations from a re-analysis of the deposited data

Results flagged for a closer look

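Log2 CPM of the 10 members was screened for single livers that stand apart. Of 20 combinations of gene and group, 1 passed Dixon's 95% critical value, about what chance gives (1 in 20). It was Ccnd1 in NCACS mouse 15, the lowest of its group, where the gap to the next liver made up 0.749 of the range of the group. In CPM, mouse 15 had 6.52 and the nearest liver, mouse 13, had 21.8.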

How the results depend on the processing

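No paired analysis was possible because mouse numbers differ between the groups. For these changes, the cause was not tested. The count of members past the threshold, 0, became 2 with DESeq2 and stayed 0 in the other 7 settings, and it ranged from 0 to 1 when each mouse was left out (1 without mouse 13, Gadd45b, and 1 without mouse 15, Ccnd1). The count of other p53 targets, 1, was 5 with DESeq2, 1 in the other 7 settings, and 1 to 2 with a mouse left out. The count of cyclins, CDKs, inhibitors and BTG relatives, 2, was 1 with limma-voom, upper-quartile factors, raw library totals and the robust fit, where Tob2 was lost, and 0 to 1 with a mouse left out. None of the 4 ratios within a liver passed 0.05 in any setting run, with ranges over the fits that left out a mouse of 0.62 to 1.43 (Cdkn1a to Ccng1), 0.13 to 1.05 (Cdkn1a to Cdkn1b), 0.49 to 1.04 (Btg2 to Btg1) and 1.17 to 2.18 (Gadd45g to Gadd45a).

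Directions turned for members near 0. The log2 fold change of Cdkn1b (0.0012) was -0.0063 with DESeq2, -0.0036 with limma-voom, -0.0063 with RLE, -0.0086 with upper-quartile factors, -0.0012 without a filter and -0.0012 with at least 10 counts in every liver. That of Gadd45a (0.12) was -0.27 with limma-voom. With a mouse left out, log2 fold changes ran from -0.22 to 1.08 for Cdkn1a, -0.044 to 0.057 for Cdkn1b, -0.37 to 0.35 for Gadd45a and -0.020 to 0.33 for Btg1, and differences of mean log2 CPM from -0.047 to 0.056 for Cdkn1b, -0.59 to 0.086 for Gadd45a and -0.053 to 0.37 for Btg1. Ccnd1, Ccng1, Gadd45b, Gadd45g, Btg2 and Mdm2 kept their direction in every setting run.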
